A study of Homo sapiens with 24 samples.

Results

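The 10 early-response genes described here were measured across 3 hepatocellular carcinoma cell lines and 4 treatments: 4 FOS family genes (FOS, FOSB, FOSL1, FOSL2), 3 JUN family genes (JUN, JUNB, JUND), and EGR1, ATF3 and IER3. These 10 genes, of 63677 genes in the expression table, were chosen by gene symbol because FOS was higher with GSK-126 in SNU398 cells. The SNU398 GSK-126 and SNU398 DPBS libraries therefore fixed the choice, and comparisons that use them are given as values without a test. All 10 genes reached 0.5 RPKM in each of the 24 libraries and so passed the filter on low values, as did 19377 genes in all. Another 5 entries for IER3, on alternate haplotypes of chromosome 6, were listed at 0 and were left out.

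The study asked how an EZH2 inhibitor and a DNA-demethylating drug, alone and together, alter total RNA in liver cancer cells. The lines were HepG2, SNU398 and SNU475, all with genotype given as Wildtype. Each received the combination of both drugs, GSK-126 alone (500 nM daily, an inhibitor of the histone methyltransferase EZH2), decitabine alone (5-Aza-CdR, 100 nM daily, a nucleoside that depletes DNA methyltransferases), or DPBS, the saline vehicle. Dosing lasted 3 days. HepG2 and SNU398 were harvested on day 14 and SNU475 on day 21, so cell line and harvest day cannot be told apart where SNU475 is set against another line. Each of the 12 groups had 2 libraries, A and B, and the labels do not say that A and B came from separate cultures. The p-values measure the spread between these libraries, which may be technical.

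FOS and JUN proteins pair through leucine zippers to form AP-1, a transcription factor that binds short palindromes in promoters and enhancers. JUN proteins can pair with each other, whereas FOS proteins need a JUN partner. FOS, FOSB, JUN, JUNB, EGR1, ATF3 and IER3 are immediate-early or early-response genes, whose transcription rises soon after growth factors or stress act through MAP kinases, serum response factor and CREB, and whose mRNAs are short-lived. FOSL1 and FOSL2 respond more slowly, and FOSL1 is itself known as an AP-1 target. EGR1 is a zinc-finger factor, ATF3 a stress-induced leucine-zipper factor of the ATF/CREB family, and IER3 a small early-response protein linked to ERK signalling and cell survival. In mouse liver, Jun is needed for normal liver development and supports regeneration.

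The 250 bases before the start sites were searched for some classic control elements. DNA farther away was not searched, so a missing match concerns only this window. Printed are 4 members with many of the values given here. They were taken because FOS and FOSB share a layout in this window while JUN and EGR1 hold other arrangements. Each run is the 250 bases before the RefSeq start, 5′ to 3′ on the gene's strand, from GRCh38.p14: chr14:75278578-75278827 (plus strand) for FOS, chr19:45467746-45467995 (plus) for FOSB, chr1:58784048-58784297 (minus) for JUN and chr5:138465229-138465478 (plus) for EGR1. Capitals mark matches, on either strand, to the cyclic AMP response element core TGACGT, the AP-1 site TGACTCA, the JUN promoter element TGACATCA, the TATA box TATAAA, the EGR site GCGNGGGCG or the CArG box bound by serum response factor.
FOS: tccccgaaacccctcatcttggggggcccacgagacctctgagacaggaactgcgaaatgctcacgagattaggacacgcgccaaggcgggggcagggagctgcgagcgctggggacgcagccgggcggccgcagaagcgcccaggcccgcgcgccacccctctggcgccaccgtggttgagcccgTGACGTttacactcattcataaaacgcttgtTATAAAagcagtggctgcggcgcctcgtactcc
FOSB: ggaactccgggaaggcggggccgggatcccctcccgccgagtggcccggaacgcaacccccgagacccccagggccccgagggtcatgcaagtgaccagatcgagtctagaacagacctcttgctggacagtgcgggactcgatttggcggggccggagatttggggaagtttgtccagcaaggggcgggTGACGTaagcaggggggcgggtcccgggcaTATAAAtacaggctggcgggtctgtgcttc
JUN: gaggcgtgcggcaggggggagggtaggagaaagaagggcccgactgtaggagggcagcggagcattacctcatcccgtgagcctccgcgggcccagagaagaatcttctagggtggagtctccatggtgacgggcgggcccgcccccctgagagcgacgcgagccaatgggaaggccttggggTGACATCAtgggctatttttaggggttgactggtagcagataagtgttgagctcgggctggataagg
EGR1: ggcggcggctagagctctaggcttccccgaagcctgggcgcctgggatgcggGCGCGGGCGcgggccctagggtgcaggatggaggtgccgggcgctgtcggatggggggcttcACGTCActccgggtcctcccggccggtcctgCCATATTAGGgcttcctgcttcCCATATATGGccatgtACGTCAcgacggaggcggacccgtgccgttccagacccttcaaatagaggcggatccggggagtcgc
FOS and FOSB shared a layout: TGACGT at bases -64 to -59 in FOS and -60 to -55 in FOSB, and TATAAA at -33 to -28 in FOS and -30 to -25 in FOSB, counted back from the start. JUN held TGACATCA at -67 to -60 and no other match. EGR1 held CArG boxes at -105 to -96 and -83 to -74, TGACGT on the opposite strand at -136 to -131 and -67 to -62, and an EGR site at -198 to -190. Among 35116 promoters of the same length, 7.10% held TGACGT (a full TGACGTCA, which contains it, 1.65%), 10.7% TATAAA, 2.37% TGACATCA, 8.41% GCGNGGGCG, 4.20% TGACTCA and 1.16% a CArG box. TGACTCA was in none of the 9 windows found for 8 of the 10 members. Of the members not printed, FOSL2 held TGACGT at -66 to -61 and JUNB held TATAAA at -31 to -26. JUND held TGACGTCA at -200 to -193, and ATF3 held TGACATCA at -123 to -116. FOSL1 and IER3 are named only.

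Levels are RPKM (reads per kilobase of gene, divided by the size of the library), rescaled between libraries, and changes are differences of log2(scaled RPKM + 0.5). Counts at 2-fold use these changes, so a gene with low levels can pass 2-fold in scaled RPKM without being counted. The libraries held 32600000 to 60370000 counted reads by the authors' denominator, and the members had between 174 reads (FOSL1) and 39253 reads (EGR1) in a library. Hepatocyte markers, 10 genes, summed to 11720 and 11740 scaled RPKM in HepG2 DPBS libraries, with ALB at 5409 and 5537. The same markers were near absent in the other lines. They summed to 0.584 to 47.7 in the 8 SNU398 libraries, with the maximum in decitabine library A and 0.862 in decitabine library B. In the 8 SNU475 libraries they summed to 1.65 to 73.8, with the maximum in DPBS library A and 16.7 in DPBS library B. VIM, a mesenchymal filament gene, was at 329 and 325 in SNU398 DPBS and 173 and 179 in SNU475 DPBS but 0.194 and 0.167 in HepG2 DPBS. The other mesenchymal genes were split. ACTA2 was at 2.83 and 2.68 in SNU398 DPBS and 7.82 and 7.55 in HepG2 DPBS. PDGFRB was at 0.03 in both SNU398 DPBS libraries and at 0.622 and 0.679 in HepG2 DPBS. DCN, COL1A1 and COL1A2 were, like VIM, lowest in HepG2 DPBS. Markers of endothelial cells summed to under 0.7 in every library, and the 5 immune markers to between 0.279 and 12.8. CD14, a monocyte receptor gene, made up most of the immune sum in SNU475 DPBS, at 12.1 in both libraries, PTPRC was at 0.495 and 0.584 in SNU398 DPBS, and CD3E was at most 0.013 in the DPBS libraries. In bulk RNA, fewer cells that carry a transcript and less of it per cell cannot be told apart.

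**Figure D1:**
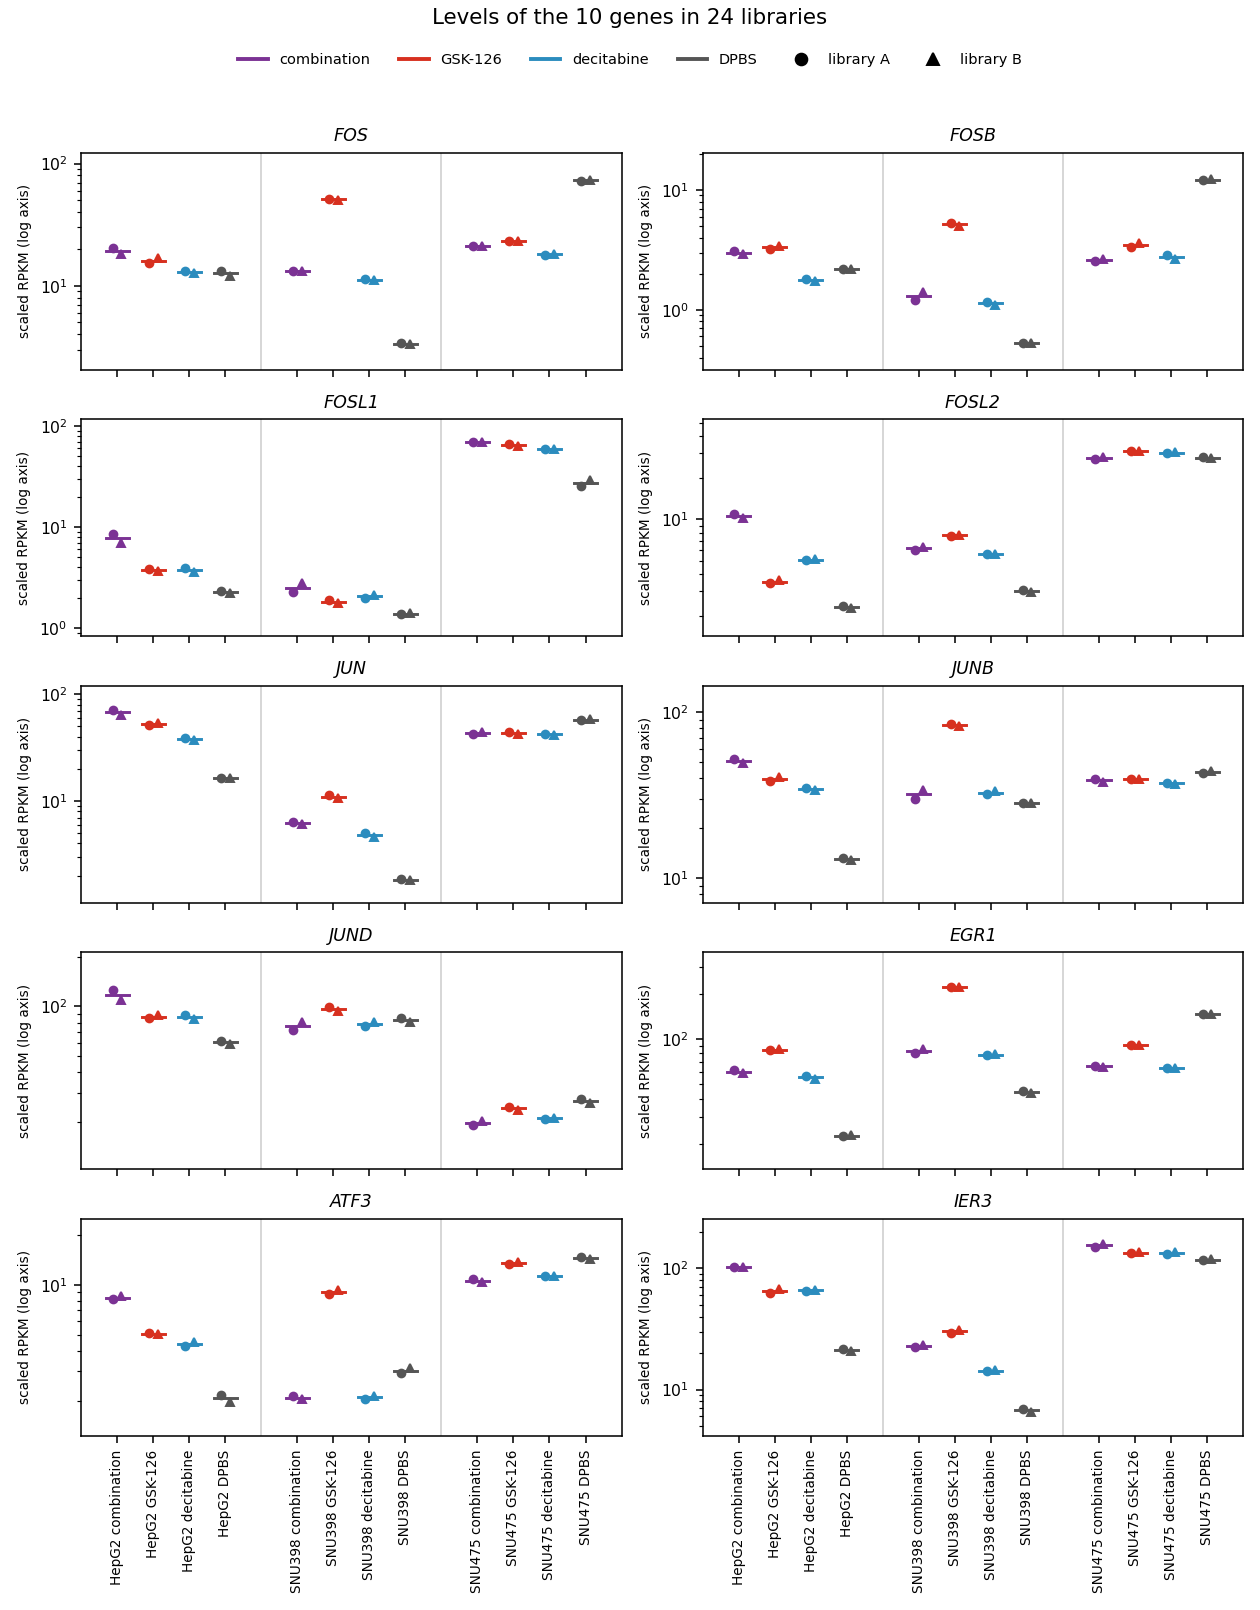
Scaled RPKM (log axis) of each gene in every library, by cell line and treatment; circles are library A, triangles library B and lines the group mean. FOS and FOSB have 2 high groups, SNU475 DPBS and SNU398 GSK-126, whereas FOSL1 is high in all SNU475 groups and JUND is lowest there.

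In the DPBS libraries the members stood at very different levels in the 3 lines. FOS, at chr14:75745477-75748933 in hg19, was at 72.2 and 73.8 scaled RPKM in SNU475 DPBS, against 13.1 and 12.1 in HepG2 DPBS. Its log2 difference was 2.49 (SE 0.049, limma adjusted p = 3.3e-16). In all, 9 members were higher in SNU475 DPBS than in HepG2 DPBS, all by at least 2-fold, where 42.4% of the genes tested were higher and 17.8% higher by at least 2-fold. Differences were largest for FOSL2 (3.34, SE 0.033) and FOSL1 (3.32, SE 0.085), both FOS family genes whose proteins pair with JUN. JUND, a JUN family member usually present in resting cells, was the exception, at 27.5 and 26.3 in SNU475 DPBS against 61.5 and 59.8 in HepG2 DPBS (-1.16, SE 0.062, adjusted p = 7.8e-11), where 36.9% of genes were lower. Without rescaling, the median of all genes in this comparison shifted by 0.11 on the log2 scale, and the members' calls held.

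SNU398 DPBS was the lowest of the 12 groups for FOS, FOSB, FOSL1, JUN and IER3. FOS was at 3.41 and 3.31 scaled RPKM there, and JUN, the founding AP-1 partner at chr1:59246465-59249785, at 1.85 and 1.81. HepG2 DPBS held 16.4 and 16.6 of JUN, and SNU475 DPBS 57.6 and 58.4. JUNB, by contrast, was higher in SNU398 DPBS, at 28.5 and 28.3, than in HepG2 DPBS, at 13.3 and 12.9. EGR1 in SNU398 DPBS, at 45.1 and 43.8, also lay above HepG2 DPBS, at 22.4 and 22.9. These SNU398 levels are a description, since they took part in the choice of the genes.

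Within the JUN family, the member with the most RNA per length differed by line. JUND made up 73.8% and 72.8% of the summed JUN family RPKM in SNU398 DPBS and 67.4% and 67.0% in HepG2 DPBS. In SNU475 DPBS it made up 21.5% and 20.4%, and JUN was the leading member with 45.0% and 45.2%.

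In HepG2, each drug was accompanied by higher JUN, JUNB, EGR1 and IER3, while FOS moved little. EGR1, at chr5:137801179-137805004, was at 61.7 and 59.4 scaled RPKM with the combination, 83.8 and 86.0 with GSK-126 and 57.0 and 54.3 with decitabine, against 22.4 and 22.9 with DPBS. All 6 treated libraries lay above both DPBS libraries, with GSK-126 alone the highest. The changes were 1.40, 1.88 and 1.28 (SE 0.027 each), with limma adjusted p of 6.2e-15, 4.6e-16 and 4.8e-14. JUN was at 70.9 and 64.7 with the combination, 51.6 and 53.6 with GSK-126 and 39.0 and 37.7 with decitabine, against 16.4 and 16.6 with DPBS. No 2 of its 4 groups overlapped, and its changes were 2.01, 1.64 and 1.19 (SE 0.045). IER3, at chr6:30710976-30712331, reached 103 and 102 with the combination, 62.7 and 67.2 with GSK-126 and 65.0 and 66.8 with decitabine, against 21.6 and 20.9 with DPBS. The change with the combination, 2.25 (SE 0.036, adjusted p = 8.8e-16), was the highest of any member in HepG2, and the groups with a single drug overlapped each other.

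FOS in HepG2 was at 20.3 and 18.2 scaled RPKM with the combination, 15.3 and 16.8 with GSK-126 and 13.2 and 12.8 with decitabine, against 13.1 and 12.1 with DPBS. The combination and GSK-126 groups lay above DPBS, and the decitabine group overlapped it. Its change was 0.59 with the combination (SE 0.049, adjusted p = 4.1e-08), 0.34 with GSK-126 (adjusted p = 2.9e-05) and 0.05 with decitabine (95% interval -0.06 to 0.15, adjusted p = 0.476). FOSB, a close relative of FOS at chr19:45971253-45978437, was at 3.07 and 2.94 with the combination, 3.20 and 3.42 with GSK-126 and 1.79 and 1.75 with decitabine, against 2.17 and 2.18 with DPBS. It was the member that fell with decitabine, by 0.24 on the log2 scale (SE 0.051, adjusted p = 0.00106). FOSB lies wholly within 7185 bases shared with ERCC1, which ranged from 3.64 to 20.0 RPKM, and whether counting used strand is not given in the sources used here. JUNB likewise overlaps HOOK2, at 0.55 to 3.94 RPKM.

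FOSL1 and FOSL2 stood out in HepG2 for the combination. FOSL2, at chr2:28615315-28640179, was at 10.9 and 10.2 scaled RPKM with the combination, 3.43 and 3.66 with GSK-126 and 5.07 and 5.13 with decitabine, against 2.36 and 2.27 with DPBS. Its change was 1.98 with the combination (SE 0.033, adjusted p = 1.4e-15), 0.52 with GSK-126 and 0.99 with decitabine. FOSL1, at chr11:65659520-65668044, was at 8.45 and 7.02 with the combination, 3.84 and 3.71 with GSK-126 and 3.90 and 3.55 with decitabine, against 2.31 and 2.25 with DPBS. The combination's change was 1.56 (SE 0.085, adjusted p = 3.7e-10), and all treated libraries exceeded both DPBS libraries. ATF3, at chr1:212738676-212794119, was also highest with the combination, at 8.24 and 8.49 with the combination, 5.11 and 5.02 with GSK-126 and 4.26 and 4.54 with decitabine, against 2.17 and 1.97 with DPBS. JUND, at chr19:18390563-18392432, changed least of the JUN family, by 0.94 with the combination and 0.51 with either drug alone (SE 0.062).

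Counted together, all 10 members were higher in HepG2 with the combination, where 40.6% of genes tested were higher, and 7 by at least 2-fold, where 6.44% of genes were. With GSK-126 all 10 were higher (31.0% of genes), 5 of them by at least 2-fold (JUN, JUNB, EGR1, ATF3 and IER3; 1.27% of genes). With decitabine 8 were higher (35.9% of genes) and FOSB lower (18.3% of genes), and JUN, JUNB, EGR1 and IER3 were higher by at least 2-fold (3.18% of genes). Median changes of the members were 1.68, 0.87 and 0.96 for combination, GSK-126 and decitabine, beside 0.08, 0.03 and 0.07 for all genes tested. These 3 comparisons share the same DPBS libraries.

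Other measures moved with treatment in HepG2 as well. Hepatocyte markers summed to 7430 and 7360 scaled RPKM with the combination, 10800 and 10940 with GSK-126 and 10530 and 10830 with decitabine, against 11720 and 11740 with DPBS. The 4 markers of hepatocellular carcinoma and fetal liver, such as AFP, summed to 1146 and 1139 with the combination, 2403 and 2386 with GSK-126 and 2644 and 2665 with decitabine, against 3418 and 3385 with DPBS. Both liver sums were therefore lowest with the combination. The 4 epithelial markers summed to 497 and 472 with the combination, 176 and 182 with GSK-126 and 307 and 299 with decitabine, against 209 and 206 with DPBS. Mesenchymal markers summed to 23.5 and 24.2 with the combination, 8.74 and 9.70 with GSK-126 and 18.7 and 18.0 with decitabine, against 8.64 and 8.42 with DPBS. Immune markers summed to 5.55 and 5.67 with the combination, 0.628 and 0.733 with GSK-126 and 6.39 and 6.27 with decitabine, against 1.34 and 1.65 with DPBS. The mesenchymal and immune sums lay above DPBS in both groups given decitabine. Mitochondrially encoded mRNAs, 13 genes, summed to 15850 and 16130 with the combination, 12720 and 12220 with GSK-126 and 15050 and 16100 with decitabine, against 18800 and 18030 with DPBS. The part of these measures in the members' changes was not tested.

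The share of all calls that were higher depended on scaling: for decitabine it was 66.3%, but 53.3% without rescaling and 46.3% after quantile normalization, and for the combination 61.0%, but 47.9% after quantile normalization.

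**Figure D2:**
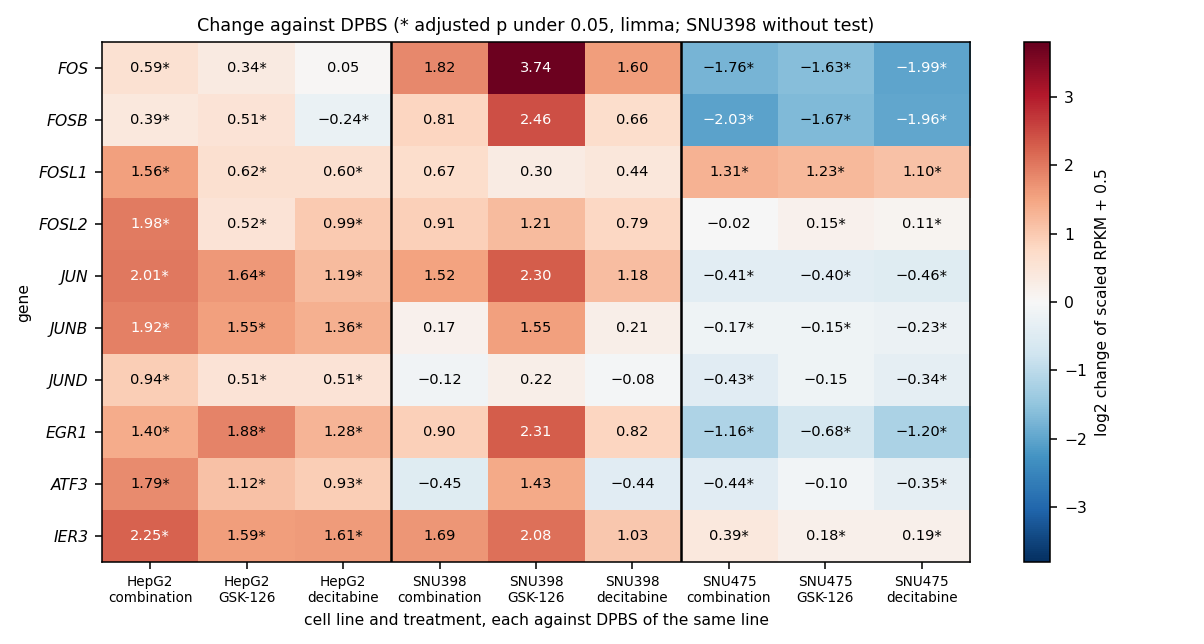
Log2 change of each gene against DPBS of the same line, for the 3 treatments in each line; asterisks mark adjusted p under 0.05 (limma), and SNU398 has no test. HepG2 is above 0 except FOSB with decitabine (-0.24), while in SNU475 FOS, FOSB and EGR1 are below 0 and FOSL1 above 0 with every treatment.

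Whether the drugs add up was asked with the interaction, the change with the combination minus the sum of the changes with each drug alone, on the log2 scale. In HepG2 it was below 0 for JUN (-0.83, SE 0.064), JUNB (-0.99, SE 0.072), EGR1 (-1.76, SE 0.039, limma adjusted p = 1.1e-13), ATF3 (-0.26) and IER3 (-0.95), 5 members where 27.9% of genes tested were below 0. Another 3 members were above 0: FOSL2 (0.46, SE 0.047, adjusted p = 9.1e-07), FOSL1 (0.34, SE 0.12, adjusted p = 0.0288) and FOS (0.21, SE 0.069, adjusted p = 0.0198), where 25.1% of genes were. The FOSL1 and FOS calls were lost under some other settings, including a fit on HepG2 alone (adjusted p of 0.0702 and 0.153). FOSL2 RNA was thus higher with both drugs than the 2 single changes add up to, and JUN, JUNB, EGR1 and IER3 lower.

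Adding GSK-126 to decitabine in HepG2 was accompanied by higher levels of all 10 members, where 30.0% of genes were higher, and by changes of 0.12 (EGR1) to 0.98 (FOSL2), with a median of 0.63 beside 0.02 for all genes. No member passed 2-fold on this log2 scale, as 1.03% of genes did upward. By the ratio of mean scaled RPKM, without the added 0.5, FOSL1 (2.08) and FOSL2 (2.07) did. EGR1 had adjusted p = 0.00162 here, and 0.0583 after quantile normalization. Adding decitabine to GSK-126 gave 8 members higher (36.9% of genes) and 2 lower (28.8% of genes). The 2 were EGR1, at 61.7 and 59.4 with the combination against 83.8 and 86.0 with GSK-126 (-0.48, SE 0.027, adjusted p = 6.1e-10), and FOSB (-0.12, SE 0.051, adjusted p = 0.0474), whose call was lost under 6 of 9 other settings.

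SNU398 with GSK-126 alone held the pattern on which the genes were chosen, so it is described without a test. FOS was at 13.1 and 13.1 scaled RPKM with the combination, 51.7 and 50.2 with GSK-126 and 11.3 and 11 with decitabine, against 3.41 and 3.31 with DPBS. Both GSK-126 libraries lay far above the other 6, and both DPBS libraries below them. FOSB was at 1.20 and 1.40 with the combination, 5.29 and 5.04 with GSK-126 and 1.17 and 1.09 with decitabine, against 0.525 and 0.529 with DPBS. EGR1 was at 80.9 and 85.4 with the combination, 223 and 223 with GSK-126 and 78.6 and 78.8 with decitabine, against 45.1 and 43.8 with DPBS. The 3 genes shared one order, with GSK-126 alone above the combination and decitabine, and DPBS lowest.

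JUN in SNU398 was at 6.32 and 6.07 with the combination, 11.3 and 10.7 with GSK-126 and 5.02 and 4.57 with decitabine, against 1.85 and 1.81 with DPBS. JUNB was at 29.8 and 34.1 with the combination, 85.0 and 83.0 with GSK-126 and 31.9 and 33.7 with decitabine, against 28.5 and 28.3 with DPBS, so it was high with GSK-126 alone. ATF3 was at 2.13 and 2.03 with the combination, 8.73 and 9.25 with GSK-126 and 2.06 and 2.14 with decitabine, against 2.92 and 3.14 with DPBS. It thus lay below DPBS in both groups given decitabine. FOSL1 was at 2.27 and 2.77 with the combination, 1.91 and 1.76 with GSK-126 and 2.0 and 2.14 with decitabine, against 1.38 and 1.41 with DPBS. Of the FOS family it alone was higher with the combination than with GSK-126 alone.

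With GSK-126 against DPBS, all 10 members lay above DPBS without overlap, as 41.6% of genes tested did, and 8 by at least 2-fold, as 2.19% of genes did; the other two were FOSL1 (0.30) and JUND (0.22). The log2 changes were 3.74 for FOS, 2.46 for FOSB, 2.31 for EGR1, 2.30 for JUN and 2.08 for IER3, with a median of 1.82 over the members beside 0.02 for all genes. With the combination against GSK-126, 9 members lay lower without overlap (33.5% of genes), and FOS (-1.92), ATF3 (-1.88), FOSB (-1.66), EGR1 (-1.42) and JUNB (-1.38) by at least 2-fold (1.38% of genes). With decitabine against DPBS, 8 members lay above DPBS without overlap (40.2% of genes) and JUND (-0.08) and ATF3 (-0.44) below (28.0% of genes); JUND was at 0.05 after quantile normalization. With the combination against DPBS the same 8 lay above (43.4% of genes) and the same 2 below (28.8% of genes), again with JUND turning to 0.04 after quantile normalization. FOS, JUN and IER3 were at least 2-fold above DPBS in both comparisons (1.19% of genes with decitabine, 1.63% with the combination), which share the DPBS libraries. The interaction was -3.52 for FOS and below 0 for all 10 members, with FOSL1 at -0.07 and at 0.05 without rescaling.

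Measures of RNA make-up differed between the SNU398 groups. Reads assigned to genes were 60.9% and 57.2% of the total in the GSK-126 libraries, against 63.6% and 63.3% in the DPBS libraries, and 62.7% to 63.1% in the other groups. The 13 mitochondrially encoded mRNAs summed to 11620 and 11710 scaled RPKM with the combination, 4555 and 4983 with GSK-126 and 10860 and 11380 with decitabine, against 7461 and 7921 with DPBS. The mesenchymal markers, 6 genes, summed to 343 and 341 with the combination, 439 and 432 with GSK-126 and 349.8 and 355 with decitabine, against 339.7 and 335 with DPBS. Hepatocyte markers summed to 1.69 and 12.2 with the combination and 47.7 and 0.862 with decitabine, so the libraries within these groups did not match. The part of these measures in the levels of the members was not tested.

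The tested comparison in SNU398 that uses neither of those groups was the combination against decitabine. FOS, at 13.1 and 13.1 with the combination against 11.3 and 11 with decitabine, was higher by 0.22 (SE 0.049, limma adjusted p = 0.00507), without overlap. Across all other settings its change stayed between 0.20 and 0.25, with adjusted p between 3.2e-04 and 0.0457. IER3, at 22.4 and 23.3 against 14.2 and 14.4, had the largest member change, 0.66 (SE 0.036, adjusted p = 4.9e-08). JUN was higher by 0.34 (SE 0.045, adjusted p = 1.1e-04) and FOSL2 by 0.12 (SE 0.033, adjusted p = 0.0173, but 0.151 without library B of the combination). These 4 higher members compare with 12.5% of genes higher, and no member was called lower, where 8.07% of genes were. Without library A of the combination 7 members were called, and leaving out single libraries gave 3 to 7. None reached 2-fold, as 0.0723% of genes did upward. For the others the intervals were 0.03 to 0.25 for FOSB, 0.04 to 0.41 for FOSL1, -0.15 to 0.07 for JUNB, -0.17 to 0.10 for JUND, 0.02 to 0.14 for EGR1 and -0.11 to 0.09 for ATF3. The intervals are not adjusted for the number of genes tested. FOSB, FOSL1 and EGR1 were therefore not called (limma adjusted p of 0.0627, 0.0761 and 0.0599), although their intervals lie above 0.

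**Figure D3:**
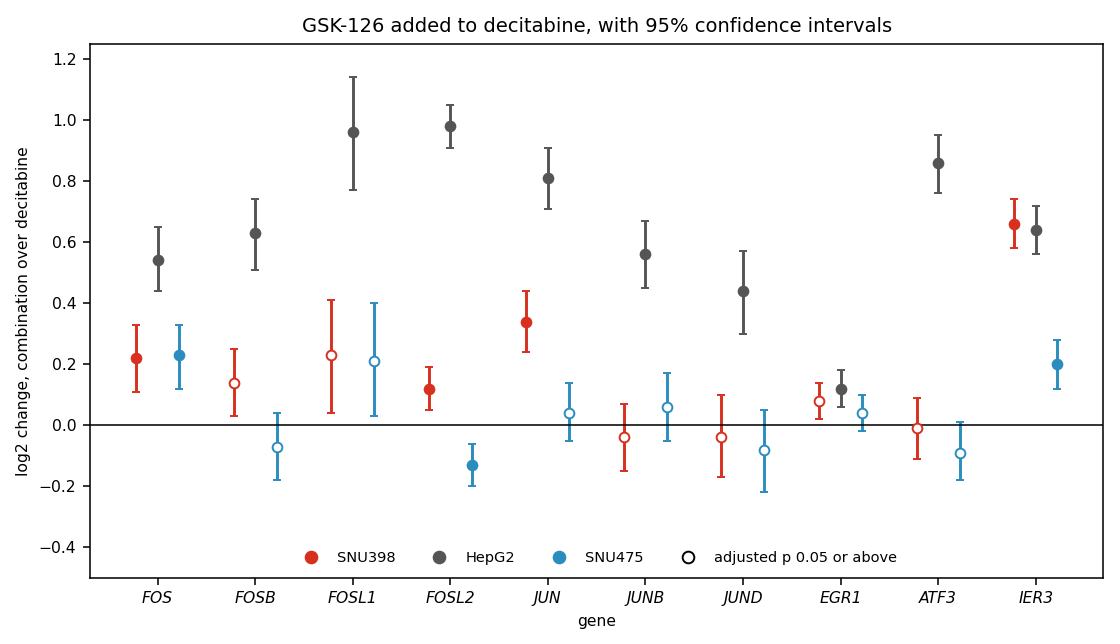
Log2 change of each gene with the combination over decitabine alone in SNU398, HepG2 and SNU475, with 95% confidence intervals. The intervals are not adjusted for the number of genes tested, and open points have limma adjusted p of 0.05 or above. HepG2 points run from 0.12 to 0.98, and in SNU398 IER3 (0.66) and JUN (0.34) are highest.

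The effect of adding GSK-126 to decitabine differed between lines. It was smaller in SNU398 than in HepG2 for 8 members, where 24.4% of genes were lower, among them ATF3 (difference -0.87, SE 0.062, adjusted p = 8.7e-08), FOSL2 (-0.86) and FOS (-0.32, SE 0.069, adjusted p = 0.00136). For EGR1 the interval of the difference was -0.13 to 0.04 and for IER3 -0.09 to 0.13. SNU398 exceeded SNU475 for IER3 (0.46, SE 0.051, adjusted p = 2.4e-05), JUN (0.30) and FOSL2 (0.25), where 12.1% of genes were higher. For FOS the interval of that difference was -0.16 to 0.14. No member's difference reached 2-fold in either case.

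In SNU475, FOS, FOSB and EGR1 were highest with DPBS and lower with every treatment. The 3 comparisons with DPBS in this line share the same DPBS libraries, so their changes are not separate results. FOS was at 21.1 and 21.2 scaled RPKM with the combination, 23.2 and 23.3 with GSK-126 and 18.0 and 18.1 with decitabine, against 72.2 and 73.8 with DPBS. The 6 treated libraries lay close together and far below DPBS, by 1.76, 1.63 and 1.99 on the log2 scale (SE 0.049, limma adjusted p of 4.5e-13, 2.7e-12 and 2.4e-13). FOSB was at 2.55 and 2.65 with the combination, 3.37 and 3.58 with GSK-126 and 2.86 and 2.64 with decitabine, against 12 and 12.3 with DPBS. Its changes were -2.03, -1.67 and -1.96 (SE 0.051). EGR1 was at 65.8 and 65.3 with the combination, 91.8 and 90.9 with GSK-126 and 63.9 and 63.6 with decitabine, against 147 and 147 with DPBS. Here the groups did not overlap, and GSK-126 alone was nearest to DPBS (-0.68, SE 0.027, against -1.16 with the combination and -1.20 with decitabine).

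FOSL1 rose in the same libraries. It was at 68.6 and 68.8 with the combination, 65.6 and 63.5 with GSK-126 and 59.5 and 59.1 with decitabine, against 25.4 and 29.4 with DPBS. The DPBS libraries differed more than those of any treated group, yet both lay below every treated library, and the changes were 1.31, 1.23 and 1.10 (SE 0.085, adjusted p of 4.9e-09, 1.7e-08 and 4.6e-08). FOSL2 was nearly level, at 27.3 and 28.1 with the combination, 31.3 and 31.2 with GSK-126 and 30.2 and 30.5 with decitabine, against 28.3 and 27.8 with DPBS. Its small rises with decitabine (0.11, adjusted p = 0.0107) and GSK-126 (0.15, adjusted p = 0.00132) were not called after quantile normalization, where they were -0.01 and 0.08. FOSL1 thereby replaced FOS as the FOS family gene with the most RNA per length: it made up 57.4% and 57.0% of the family's summed RPKM with the combination, 53.1% and 52.2% with GSK-126 and 53.8% and 53.6% with decitabine, against 18.4% and 20.5% with DPBS. FOS made up 17.7% and 17.6% with the combination, 18.8% and 19.2% with GSK-126 and 16.3% and 16.4% with decitabine, against 52.3% and 51.5% with DPBS.

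**Figure D4:**
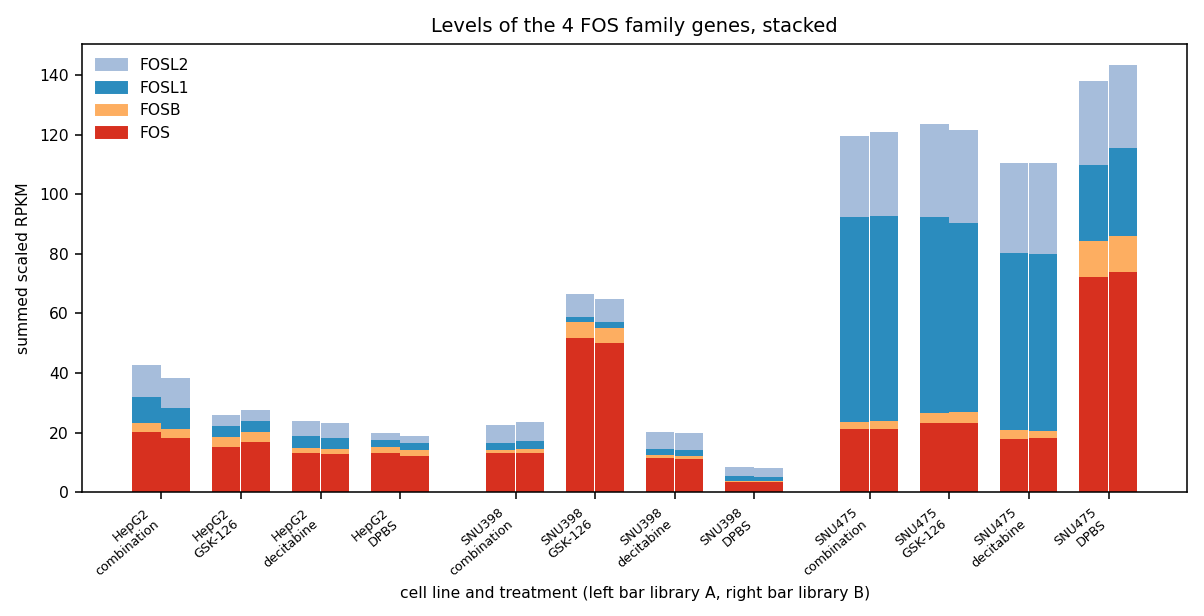
Scaled RPKM of FOS, FOSB, FOSL1 and FOSL2 stacked for every library; within each group the left bar is library A and the right bar library B. FOS takes 77.7% and 77.6% of the sum in SNU398 GSK-126 libraries and FOSL1 over 52% in all treated SNU475 libraries.

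The JUN family moved less in SNU475. JUN was at 42.8 and 44.1 with the combination, 44.7 and 42.8 with GSK-126 and 42.2 and 42.0 with decitabine, against 57.6 and 58.4 with DPBS, and fell by 0.41, 0.40 and 0.46 on the log2 scale (SE 0.045). JUNB fell by 0.17, 0.15 and 0.23 (SE 0.051), the GSK-126 call being lost without the filter on low values (adjusted p = 0.0586) and in 3 of the 24 fits that left out a library (up to 0.156), and that of the combination without its library B (adjusted p = 0.0983). JUND fell by 0.43 with the combination and 0.34 with decitabine (SE 0.062), and was at -0.15 with GSK-126 (adjusted p = 0.0619). ATF3 fell by 0.44 with the combination and 0.35 with decitabine (SE 0.044), and was at -0.10 with GSK-126 (adjusted p = 0.0746). Leaving out rescaling brought both GSK-126 values past the threshold (adjusted p of 0.0215 and 0.0149). IER3 was the second member above DPBS throughout, at 151 and 158 with the combination, 133 and 135 with GSK-126 and 132 and 137 with decitabine, against 117 and 119 with DPBS. Its changes were 0.39 (SE 0.036, adjusted p = 2.7e-07), 0.18 and 0.19, and the single-drug values became -0.01 and 0.01 after quantile normalization.

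The counts against DPBS in SNU475, and the interaction, all use the same DPBS libraries. In all, 7 members were lower with the combination in SNU475 (29.6% of genes tested) and 2 higher (25.3% of genes). With GSK-126, 5 were lower (28.5% of genes) and 3 higher (21.5% of genes). With decitabine, 7 were lower (27.3% of genes) and 3 higher (24.2% of genes), with FOS, FOSB and EGR1 at least 2-fold lower (0.898% of genes) and FOSL1 at least 2-fold higher (1.61% of genes). The interaction was above 0 for FOS (1.86, SE 0.069, adjusted p = 1.1e-10), FOSB (1.60), EGR1 (0.72), JUN (0.45) and JUNB (0.20, adjusted p = 0.0388), where 19.7% of genes were, and below 0 for FOSL1 (-1.02, SE 0.12, adjusted p = 1.2e-05) and FOSL2 (-0.28), where 16.6% were. The JUNB call was lost without the filter on low values (adjusted p = 0.0818) and in 6 of the 24 fits that left out a library, with adjusted p up to 0.142.

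Between the treated groups of SNU475 the differences were small. The combination exceeded decitabine for FOS (0.23, SE 0.049, adjusted p = 0.00446) and IER3 (0.20), where 7.39% of genes were higher, and was below it for FOSL2 (-0.13, a call lost without library A of the combination, adjusted p = 0.104), where 10.9% were lower. Against GSK-126, the combination was lower for 6 members (17.7% of genes), led by EGR1 (-0.48, SE 0.027, adjusted p = 4.7e-09), FOSB (-0.36) and ATF3 (-0.34), and higher for IER3 (0.20; 18.2% of genes). FOS was among the 6 at -0.13 (limma adjusted p = 0.0477), a call that mostly did not hold. It was lost without rescaling (adjusted p = 0.0931), without the filter on low values (0.0947) and with a pseudocount of 0.1 (0.0515). It was also lost in 18 of the 24 fits that left out a library.

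Other measures moved with treatment in SNU475 too. Mitochondrially encoded mRNAs summed to 26850 and 27580 scaled RPKM with the combination, 8611 and 9062 with GSK-126 and 29470 and 30390 with decitabine, against 15300 and 15870 with DPBS. They were below DPBS with GSK-126 and above it in the other treated groups. The mesenchymal markers summed to 525 and 540 with the combination, 474 and 480 with GSK-126 and 465 and 469 with decitabine, against 223 and 232 with DPBS. The immune markers, 5 genes, summed to between 4.28 and 6.58 in the treated libraries, against 12.7 and 12.8 with DPBS. Hepatocyte markers summed to between 1.65 and 13.5 in the treated libraries, against 73.8 and 16.7 with DPBS. The DPBS libraries did not match each other, with ALB at 24.1 in A and 1.09 in B. FGB, at 13.5 and 13.2, made up most of the sum in B. The hepatocyte sum is therefore not read as a change with treatment. The part of these measures in the members' changes was not tested.

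GSK-126 effects in SNU475 and HepG2 were set against each other directly. For 7 members the GSK-126 effect was at least 2-fold lower in SNU475 than in HepG2, as it was for 3.36% of genes, and for FOSL1 it was higher (0.60, SE 0.12, adjusted p = 5.4e-04), as for 22.6% of genes. FOSL2 (-0.37) and JUND (-0.66) were lower by less than 2-fold.

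The ordering of the 12 groups summarises the single genes. FOS ran from SNU398 DPBS (3.36 ± 0.066, SD, n = 2) up to SNU398 GSK-126 (51.0 ± 1.07) and SNU475 DPBS (73.0 ± 1.13). Among the groups between, the neighbours HepG2 DPBS, HepG2 decitabine and SNU398 combination overlapped. EGR1 ran from HepG2 DPBS (22.6) to SNU475 DPBS (147) and SNU398 GSK-126 (223), with SNU398 combination and HepG2 GSK-126 overlapping. JUND was lowest in the 4 SNU475 groups (19.9 to 26.9) and highest with the combination in HepG2 (117). IER3 had its 4 highest groups in SNU475 (118 to 155) and its lowest in SNU398 DPBS (6.74).

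After each line's mean was subtracted, members differed in how alike their profiles were over the 24 libraries, which share lines and treatments. Pearson's r was 0.95 for FOS and FOSB, 0.94 for JUN and IER3, 0.93 for JUNB and ATF3 and 0.90 for JUN and EGR1. Over the 20 libraries left without SNU398 GSK-126 and SNU398 DPBS, a selection made after the data were seen, these were 0.97, 0.90, 0.95 and 0.84. FOSL1 was apart from FOS (-0.12) and FOSB (-0.29), and nearest to FOSL2 (0.69) over all libraries; over the 20 the values were -0.42, -0.50 and 0.72, with IER3 at 0.73. Of 15954 genes ranked, those most like FOS were THNSL2 (r = 0.967), SLU7 (0.963), MKNK2 (0.958), FOSB (0.951) and ERC1 (0.949). Those most like EGR1 were KHNYN (0.978), KIAA0232 (0.97), MTMR3 (0.960), MCL1 (0.958) and PARD3B (0.956). Without the SNU475 DPBS and SNU398 GSK-126 libraries the r values fell to between 0.859 and 0.916 for FOS and lay between 0.914 and 0.963 for EGR1. Those values are for the same genes, picked by their r, and still include SNU398 DPBS.

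Other immediate-early genes, a list of 25 outside the members, went with them in HepG2. There 25 were higher and none lower with the combination (median 1.0 beside 0.08 for all genes), 21 higher and 0 lower with GSK-126 (median 0.72 beside 0.03), and 21 higher and 1 lower with decitabine (median 0.37 beside 0.07). The shares of all genes there were 40.6%, 31.0% and 35.9% higher and 25.9%, 21.7% and 18.3% lower, in the same order. CYR61, a matricellular gene driven by YAP and serum response factor, averaged 54.6 scaled RPKM with the combination, 33.7 with GSK-126 and 15.8 with decitabine, against 5.39 with DPBS, with changes of 3.23, 2.54 and 1.47 (SE 0.039). ZFP36, which speeds the decay of AU-rich mRNAs, rose by 1.79 with the combination and 1.22 with decitabine (SE 0.059). NR4A1, an orphan nuclear receptor, rose by 1.22 with GSK-126 (SE 0.033), and CTGF, a relative of CYR61, by 1.91 (SE 0.044).

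In SNU475 the same list split. With the combination 7 were higher and 9 lower (median -0.07 beside -0.01), with GSK-126 9 higher and 6 lower (median 0.06 beside -0.02), and with decitabine 6 higher and 12 lower (median -0.14 beside -0.01). The shares of all genes were 25.3%, 21.5% and 24.2% higher and 29.6%, 28.5% and 27.3% lower, in the same order. CYR61 rose there with the combination (0.90) and GSK-126 (0.98), NR4A1 fell with GSK-126 (-0.73, SE 0.033), BTG2, an antiproliferative gene, fell with decitabine (-0.83, SE 0.058), and RHOB, a small GTPase, fell with the combination (-1.0, SE 0.058). In SNU398, 20 of the 25 were higher with the combination than with decitabine and none lower (median 0.29 beside 0.01), led by CTGF (0.75, SE 0.044), KLF2 (0.57) and CYR61 (0.54). Of all genes tested, 12.5% were higher in that comparison and 8.07% lower. With GSK-126 against DPBS in SNU398, given without a test, 10 were at least 2-fold higher, among them CYR61 at 48.2 against 7.92 scaled RPKM, RHOB at 30.9 against 8.02 and EGR2 at 4.18 against 0.771. The share of all genes at least 2-fold higher was 2.19%.

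Feedback genes of the ERK pathway, 12 dual-specificity phosphatases, Sprouty-type inhibitors and ETS factors, are given beside the shares of all genes tested. In HepG2, 7 were higher and 2 lower with the combination (40.6% of all genes higher; median 0.29 beside 0.08), 9 higher and 1 lower with GSK-126 (31.0%; 0.32 beside 0.03) and 8 higher and 2 lower with decitabine (35.9%; 0.22 beside 0.07). In SNU475, where FOS and EGR1 fell, 10 were higher and 1 lower with the combination (25.3% of all genes higher; median 0.35 beside -0.01), 7 higher and 0 lower with GSK-126 (21.5%; 0.31 beside -0.02) and 9 higher and 2 lower with decitabine (24.2%; 0.27 beside -0.01). The shares of all genes lower with combination, GSK-126 and decitabine were 25.9%, 21.7% and 18.3% in HepG2 and 29.6%, 28.5% and 27.3% in SNU475. DUSP5, an ERK phosphatase in the nucleus, averaged 9.04 scaled RPKM with the combination in HepG2 against 0.890 with DPBS (2.78, SE 0.067, limma adjusted p = 5.0e-14). DUSP2, another nuclear phosphatase, averaged 14.3 with the combination, 6.90 with GSK-126 and 7.58 with decitabine in SNU475, against 1.43 with DPBS (changes 2.94, 1.94 and 2.07, SE 0.067).

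Genes known as AP-1 targets, of which 17 were in the table and 14 passed the filter, did not all follow FOS. In SNU475, 11 were higher and 1 lower with the combination (median 0.50 beside -0.01), 8 higher and 4 lower with GSK-126 (median 0.12 beside -0.02) and 10 higher and 1 lower with decitabine (median 0.50 beside -0.01), while FOS and FOSB fell and FOSL1 rose. Of all genes tested in SNU475, 25.3%, 21.5% and 24.2% were higher with combination, GSK-126 and decitabine, and 29.6%, 28.5% and 27.3% lower. In HepG2, 8 were higher and 1 lower with the combination (median 0.28 beside 0.08), 4 higher and 5 lower with GSK-126 (median -0.03 beside 0.03), where all 10 members were higher, and 6 higher and 2 lower with decitabine (median 0.06 beside 0.07). The shares of all genes in HepG2 were 40.6%, 31.0% and 35.9% higher and 25.9%, 21.7% and 18.3% lower, in the same order. CCND1, which encodes cyclin D1, averaged 156, 162 and 130.0 scaled RPKM with combination, GSK-126 and decitabine in SNU475, against 38.3 with DPBS (changes 2.01, 2.06 and 1.75, SE 0.031). MMP1, an interstitial collagenase, averaged 3.83, 2.14 and 2.20 in the same SNU475 groups, against 0.254 with DPBS (changes 2.52, 1.80 and 1.84, SE 0.055). IL8, the neutrophil chemokine now named CXCL8, fell with GSK-126 in SNU475, at 2.43 against 9.73 (-1.80, SE 0.065). In HepG2, IL8 was at 10.6 with the combination and 5.96 with decitabine, against 1.40 with DPBS (changes 2.54 and 1.76, SE 0.065). MMP1 in SNU398 was at 29.5 with GSK-126 against 0.718 with DPBS, and, in the tested comparison, at 5.85 with the combination against 3.33 with decitabine (0.73, SE 0.055, adjusted p = 8.5e-07).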

How the data were processed

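Total RNA depleted of ribosomal RNA was sequenced from 24 libraries (12 groups of 2) as stranded single reads of 75 bases, per the labels' protocols. The deposited values are RPKM per gene, rounded to 3 decimals; the authors used HISAT2, featureCounts and hg19, per the submitters' processing notes, with no version, annotation or strand setting stated there. In short genes (up to 150 bases), all values checked were whole multiples of 1 read (within 0.15 reads), giving denominators of 32600000 to 60370000 reads. Median-of-ratios factors, from 8211 genes that reached 1 RPKM throughout, rescaled the RPKM between libraries (factors 0.847 to 1.158). The 19377 genes that reached 0.5 RPKM in 2 or more libraries were fitted as log2(scaled RPKM + 0.5) with limma 3.58.1 in R 4.3.3: 1 mean per group, all 24 libraries, 12 residual degrees of freedom, empirical Bayes with trend and robust options, two-sided, Benjamini-Hochberg over all genes tested in each of 17 comparisons. A call is an adjusted p under 0.05. With libraries this alike, 18.3% to 79.4% of genes were called in a comparison. Fold changes on this scale understate those of low genes. The 7 comparisons that use SNU398 GSK-126 or SNU398 DPBS were left untested. A and B differed beyond counting noise (median chi-square per gene 0.59 to 0.98, against 0.455 from counting alone), so they are not one library deposited in duplicate. The procedure was tested on simulated data. Alternatives were other pseudocounts, no rescaling, quantile normalization, no filter, the letter as a block, voom on recovered reads, only the lines compared, and leaving out each library. Named list genes were, per list and comparison, up to 3 called genes with the largest change, no overlap and a mean of at least 1 RPKM. A gene that this rule names is not reported here. Members and lists were chosen with earlier results of these data known. Promoters came from RefSeq, GRCh38.p14.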

Additional observations from a re-analysis of the deposited data

Results flagged for a closer look

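The effect of GSK-126 over DPBS differed between SNU475 and HepG2, by a test of the difference itself and by at least 2-fold, for 7 of the 10 genes. Of all genes tested, 7.48% passed this rule in either direction and 3.36% with a lower effect in SNU475, as these 7 had. Without the 2-fold limit, 56.5% of all genes were called. The difference, SNU475 minus HepG2 on the log2 scale, was -1.97 for FOS, -2.18 for FOSB, -2.05 for JUN, -1.69 for JUNB, -2.56 for EGR1, -1.22 for ATF3 and -1.41 for IER3 (limma adjusted p between 1.1e-15 and 3.8e-10). FOS, FOSB, JUN, JUNB and EGR1 rose in HepG2 and fell in SNU475, ATF3 rose in HepG2 and was at -0.10 in SNU475 (adjusted p = 0.0746), and IER3 rose by 1.59 in HepG2 and by 0.18 in SNU475. The lines were harvested on different days, 21 for SNU475 and 14 for HepG2, which cannot be told apart from the line. The part of the mitochondrial and marker sums given with SNU475 was not tested.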

How the results depend on the processing

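Of the counts of members called, 1 moved by over 1.5 times: combination against decitabine in SNU398, 3 to 7 when single libraries were left out (7 without combination A) against 4. Among 169 changes of single genes, 1479 of 1521 values under 9 other settings and 3961 of 4056 with a library left out kept direction and call. Signs turned in 31 values, of which 29 were not called either way. The other two, after quantile normalization in SNU475, were FOSL2 with decitabine (-0.01) and IER3 with GSK-126 (-0.01). Uncalled values that turned after quantile normalization were, for the effect of the combination over decitabine, EGR1 (0.02, SNU398 minus HepG2), FOS (0.01) and FOSL1 (-0.01, both SNU398 minus SNU475). Without rescaling, FOS with decitabine in HepG2 was -0.05, the JUND interaction in HepG2 0.02, JUN for combination against GSK-126 in SNU475 0.01 and IER3 for SNU398 minus HepG2 -0.03. With a pseudocount of 1, FOSL1 for SNU398 minus SNU475 was -0.02.

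With single libraries left out, combination against decitabine in SNU398 ranged from -0.04 to 0.02 for ATF3, -0.13 to 0.06 for JUNB and -0.11 to 0.04 for JUND. SNU398 minus SNU475 ranged from 0.00 to 0.08 for EGR1, -0.02 to 0.01 for FOS, -0.10 to 0.14 for FOSL1 and -0.03 to 0.12 for JUND, and SNU398 minus HepG2 from -0.01 to 0.05 for IER3. The interaction in SNU475 ranged from -0.01 to 0.04 for ATF3 and -0.01 to 0.05 for IER3, and in HepG2 from -0.17 to 0.02 for JUND. FOS with decitabine in HepG2 ranged from -0.01 to 0.10. In SNU475, FOSL2 with the combination ranged from -0.04 to 0.00, and combination against GSK-126 from -0.04 to 0.02 for JUN and -0.06 to 0.01 for JUNB. The cause was not tested.

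In all, 10 calls of single genes were lost in at least 1 of the 24 fits that left out a library, with highest adjusted p from 0.0716 (FOSL2, decitabine in SNU475) to 0.287 (FOSB, combination against GSK-126 in HepG2). Genes called for combination against decitabine numbered 3976 in SNU398, but 2639 and 2545 without library B of the combination or of decitabine, and 3540 in SNU475, but 2281 without decitabine A. Libraries of the same letter had little in common across groups: correlations of A minus B between groups, over 66 pairs, ran from -0.12 to 0.24. Their median was 0, and 7.6% of pairs were over 0.1. Pairing by letter within single lines was not tested. With the letter as a replicate block, FOSB for combination against GSK-126 in HepG2 was -0.12 (adjusted p = 0.0559), and no other call changed. With 2 libraries a group, the spread within a group rests on that of all groups.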

Other observations

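Partners of AP-1 that the text has not yet described, 17 other leucine-zipper genes and EGR co-repressors, were counted in the same way. In HepG2, 10 were higher and 2 lower with the combination (40.6% of all genes tested were higher; median 0.51 beside 0.08), 11 higher and 1 lower with GSK-126 (31.0% of all genes; 0.32 beside 0.03) and 12 higher and 2 lower with decitabine (35.9% of all genes; 0.33 beside 0.07). The shares of all genes lower there were 25.9%, 21.7% and 18.3%, in the same order. ATF5, a stress-response factor, averaged 20.6 scaled RPKM with the combination, 13.4 with GSK-126 and 22.2 with decitabine, against 4.42 with DPBS (limma changes 2.10, 1.49 and 2.21, SE 0.044). JDP2, which pairs with JUN as a repressor, rose with GSK-126 in HepG2, at 2.95 against 0.614 (1.63, SE 0.051). In SNU475 JDP2 rose with all treatments, by 0.89, 0.80 and 0.84 for combination, GSK-126 and decitabine (SE 0.051). BATF2, an interferon-responsive partner of JUN, averaged 6.11, 6.26 and 6.24 in the same groups, against 0.835 with DPBS (changes 2.31, 2.34 and 2.34, SE 0.084). DDIT3, a stress-induced factor, fell there by 0.81, 0.76 and 0.65 (SE 0.047). The same 3 SNU475 comparisons share their DPBS libraries.

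Upstream kinases and factors, 18 genes, showed no common direction: in HepG2, 5 were higher and 9 lower with the combination, 8 higher and 7 lower with GSK-126 and 7 higher and 4 lower with decitabine. Their medians were -0.12, 0.02 and 0.04, beside 0.08, 0.03 and 0.07 for all genes. The shares of all genes in HepG2 were 40.6%, 31.0% and 35.9% higher and 25.9%, 21.7% and 18.3% lower, in the same order. In SNU475, 4 were higher and 4 lower with the combination, 6 and 6 with GSK-126, and 4 higher and 6 lower with decitabine. Their medians there were -0.04, -0.01 and -0.01, beside -0.01, -0.02 and -0.01 for all genes. The shares of all genes in SNU475 were 25.3%, 21.5% and 24.2% higher and 29.6%, 28.5% and 27.3% lower, in the same order. ATF2, a partner of JUN, averaged 4.42 with the combination, 4.97 with GSK-126 and 5.12 with decitabine in SNU475, against 8.84 with DPBS (-0.92, -0.77 and -0.73, SE 0.035). In HepG2 with the combination, MKL1, a co-activator of serum response factor, rose by 1.09 (SE 0.051), and ELK1, a ternary complex factor, also rose, at 2.0 scaled RPKM against 0.746 with DPBS (SE 0.073 on the log2 scale, adjusted p = 8.8e-09). EZH2, the target of GSK-126, averaged 5.07 with the combination, 4.45 with GSK-126 and 6.06 with decitabine in HepG2, against 8.59 with DPBS, and 7.74, 8.13 and 6.74 in SNU475, against 5.57 with DPBS.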
